A study of Mus musculus with 4 samples.

Results

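The replication-dependent histone genes are the clustered genes whose mouse symbols start with Hist1h, Hist2h, Hist3h or Hist4h, and 60 of the 16470 genes of the deposited mRNA table carry such a symbol. By symbol they comprise 6 genes of the linker histone H1, 12 of H2A, 17 of H2B, 12 of H3 and 13 of H4. They were measured by RNA sequencing in C57BL/6 mouse embryonic stem cells at passages 25 to 30, kept on gelatin with no feeder layer in medium with LIF and serum. The cells had received FLAG-tagged mutant Dis3l2 or a mock transfection, and Dis3l2 is the exoribonuclease known for degrading RNAs that carry untemplated uridine tails from their 3′ end. The labels do not name the mutation. From each of the 2 conditions there is 1 library of input RNA after RiboMinus selection against ribosomal RNA and 1 library of RNA recovered on anti-FLAG M2 gel (immunoprecipitation, IP). RNA that sticks to the gel when no tagged protein is present is measured by the mock IP.

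Replication-dependent histones package newly made DNA in S phase, and their mRNAs are the metazoan mRNAs that end in a conserved stem-loop and not in a poly(A) tail. The stem-loop is bound by Slbp, the cut that makes the 3′ end is guided by the U7 snRNP, and at the end of S phase the mRNAs can receive oligo(U) tails and are degraded. H2A, H2B, H3 and H4 form the nucleosome core and H1 binds the DNA that enters and leaves it. Embryonic stem cells divide fast and spend much of their cycle in S phase.

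For each class the promoter of the gene with the highest mutant IP over mock IP ratio is shown, among genes with at least 10 IP reads and a single promoter window. Promoters were chosen since most genes of a core histone class encode nearly the same protein and differ more in these letters. The 200 bases before the annotated start are from RefSeq, build GRCm38.p6, at chr13:23695611-23695810 on the plus strand for Hist1h1t, chr11:58954485-58954684 on the plus strand for Hist3h2a, chr13:21721844-21722043 on the plus strand for Hist1h2bm, chr13:23745522-23745721 on the minus strand for Hist1h3c and chr13:23530844-23531043 on the plus strand for Hist1h4h. Capitals mark 3 motifs on either strand: CCAAT (the box that NF-Y binds), TATAAA (the TATA box) and ATTTGCAT (the octamer that Oct factors bind).
Hist1h1t: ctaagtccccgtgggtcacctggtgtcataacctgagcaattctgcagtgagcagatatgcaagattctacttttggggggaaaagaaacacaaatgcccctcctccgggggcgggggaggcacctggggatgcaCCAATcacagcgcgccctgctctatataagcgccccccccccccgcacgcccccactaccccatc
Hist3h2a: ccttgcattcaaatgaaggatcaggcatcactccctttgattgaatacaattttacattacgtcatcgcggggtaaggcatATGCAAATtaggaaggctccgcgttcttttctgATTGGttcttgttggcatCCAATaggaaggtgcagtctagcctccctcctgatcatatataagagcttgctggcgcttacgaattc
Hist1h2bm: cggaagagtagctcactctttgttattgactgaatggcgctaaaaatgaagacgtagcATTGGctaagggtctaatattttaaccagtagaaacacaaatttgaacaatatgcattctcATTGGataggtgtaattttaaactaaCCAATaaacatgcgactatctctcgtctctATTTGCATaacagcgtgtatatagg
Hist1h3c: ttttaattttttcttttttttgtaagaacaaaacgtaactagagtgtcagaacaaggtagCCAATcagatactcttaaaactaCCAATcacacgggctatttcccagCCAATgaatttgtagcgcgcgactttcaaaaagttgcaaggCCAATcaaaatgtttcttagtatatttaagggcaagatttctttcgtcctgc
Hist1h4h: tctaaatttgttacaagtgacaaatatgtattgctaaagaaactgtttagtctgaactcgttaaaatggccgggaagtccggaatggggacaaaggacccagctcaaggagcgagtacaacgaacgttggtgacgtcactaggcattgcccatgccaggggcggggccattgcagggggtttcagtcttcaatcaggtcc

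These promoters differ by class in the motifs they hold. Of 60 members, 59 matched a RefSeq gene and 54 had a promoter window, 55 windows in all. Over the 250 bases before the start, CCAAT was found on either strand in 44 of 55 windows (80.0%), against 33.8% of the 32851 windows in the table. All 6 H1, 12 H2A and 15 H2B windows held it, as did 8 of 10 H3 windows and 3 of 12 H4 windows. The TATA box letters were in 27 of 55 windows (49.1%), against 12.4% of all windows. The octamer was in 6 of 12 H2A and 7 of 15 H2B windows and in 0 of the H1, H3 and H4 windows, against 1.60% of all windows. Neighbouring H2A and H2B genes are often transcribed in opposite directions from a common promoter, so windows can overlap, and a match is a description of letters.

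Values in the table are whole reads divided by 1 factor per library and not by length, and the reads were recovered exactly. The table held 307324 and 291175 reads for the inputs of mutant and mock, and 2275647 and 1860030 for the IPs. Without the gene Lars2, which took many of them, 204944, 189782, 1093071 and 770365 were left. Histone genes held 330, 289, 1989 and 1205 reads in that order, which is 0.161% of reads outside Lars2 in the mutant input (exact Clopper-Pearson 95% interval 0.144 to 0.179), 0.152% in the mock input (0.135 to 0.171), 0.182% (0.174 to 0.190) for the mutant IP and 0.156% (0.148 to 0.165) for the mock IP. As bulk samples, the libraries cannot tell fewer cells in S phase from less histone RNA per cell. All 11 listed stem cell markers had reads in both IPs, and 10 and 11 of them in the mutant and mock input. The same markers summed to 137, 204, 3846 and 2671 reads in the order above. Of 6 fibroblast markers 3 were in the table, with 16, 10, 99 and 27 reads, and a ratio between the IPs of 3.40 (2.20 to 5.41). Markers of endoderm (4 of 6 in the table), mesoderm (4 of 4) and ectoderm (4 of 4) summed to between 0 and 80 reads in each library, with Mixl1 at 0 in all. Single markers differed both ways between the IPs. Thy1 (26 against 3), Gata4 (20 against 0), Kdr (14 against 0), Pax6 (13 against 0) and Sox7 (12 against 0) were past 4-fold higher, and Afp (0 against 25), Sox1 (0 against 15) and T (0 against 11) past 4-fold lower. With 3 reads put in place of the 0, Sox7 was at least 3.70-fold higher and T at least 3.96-fold lower, both under 4-fold. The part of such cells in the histone values was not tested.

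With 1 library per group no p-value can be given, and intervals cover counting error only. They compare libraries, not conditions, and they assume that reads are independent, which PCR copies and reads shared between gene copies are not. Log2 ratios were taken after adding 1 to the deposited values, among genes with a value of at least 1 in a library of the ratio, and a gene counted as higher or lower past 4-fold (2-fold between the inputs). A gene at 0 in 1 library and above 3 reads in the other has its fold given as a bound, with 3 reads put in place of the 0.

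Most histone genes were read from few molecules, and some copies shared their counts. The inputs had reads for 26 and 25 of the 60 genes in the mutant and the mock, against 53 and 39 in their IPs. That is 43.3% and 41.7% in the inputs, against 52.0% and 50.8% of all genes. In the IPs it is 88.3% and 65.0%, against 80.8% and 78.4%, so the whole table also rose from input to IP. In both inputs 23 genes were at 0, which is 38.3% against 33.0% of all genes. Every member had at least 1 read in some library. The 5 groups with the same reads in all 4 libraries held 12 genes. Hist2h2aa1 and Hist2h2aa2, which encode the same H2A, both had 6 and 10 reads in the inputs (mutant, then mock) and 91 and 65 in the IPs, and Hist1h3b and Hist1h3e both had 0, 0, 37 and 0. No source used here says how reads that fit several copies were assigned, so such copies are not separate observations.

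**Figure D1:**
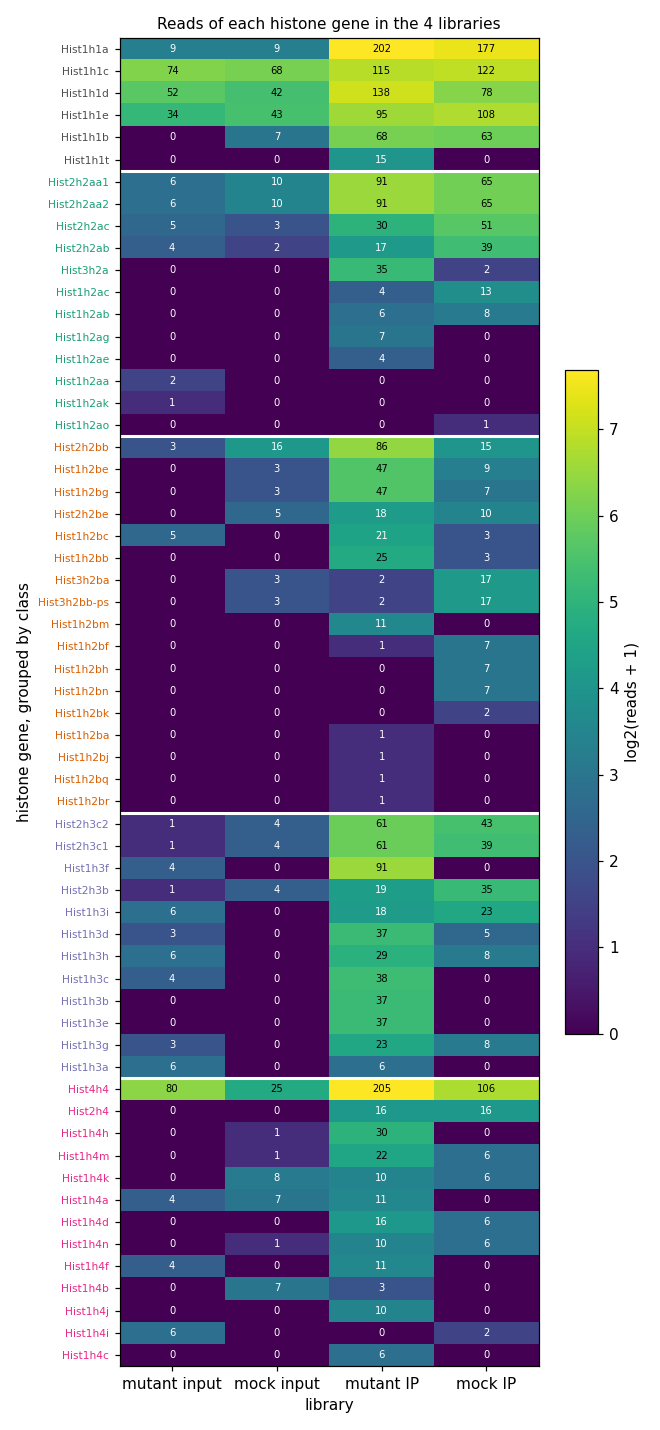
Reads of the 60 histone genes (rows, grouped and coloured by class and ordered within a class by total reads) in the 4 libraries (columns); numbers are recovered reads and colour is log2(reads + 1). The H1 genes and Hist4h4 carry most input reads, and 10 of the genes past 4-fold have 0 reads in the mock IP.

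Per length, Hist4h4 was first in 3 of the 4 libraries and Hist1h1c in the mock input. Over the 54 genes whose RefSeq span is at most 1000 bases, Hist4h4, an H4 gene that lies alone outside the large clusters, had 182 and 56.9 reads per kilobase in the inputs of mutant and mock and 467 and 241 in their IPs. Hist1h1a (H1.1) followed in the IPs with 271 and 238 reads per kilobase, but had 12.1 in each input. Hist1h1c (H1.2) had 102 and 93.8 reads per kilobase in the inputs and 159 and 168 in the IPs. The H1 genes held 51.2% and 58.5% of all histone reads in the mutant and mock input, and 31.8% and 45.5% in the IPs.

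Between the IPs histone RNA was higher with mutant Dis3l2, and the H2B, H3 and H4 genes carried the difference. This comparison makes no allowance for the inputs, which also differed. Of the 51 measured genes 16 were at least 4-fold higher, or 31.4%, against 10.1% of the 14273 measured genes of the table, and 2 were lower, or 3.92% against 5.74%. The lower count was 0 with equal totals and 4 after centring. The median log2 ratio was 1.03 (quartiles -0.14 and 2.23), against 0.38 over all genes. All 16 came from genes with at most 101 reads in the IPs together, 10 of them had 0 mock IP reads and 5 others between 1 and 9. With libraries scaled to equal totals 7 of 49 genes were higher, and with ratios centred on the median of all genes the same 7 of 51. These were Hist1h1t, Hist1h3b, Hist1h3c, Hist1h3e, Hist1h3f, Hist1h4h and Hist3h2a. With a pseudocount of 5 in place of 1 only Hist1h3f was higher. The share of all genes under these settings is not given here, and the 10.1% belongs to the main setting only. In alternatives chosen after seeing the data, 15 of 47 were higher when members with the same reads were counted once. Without the 5 genes Hist1h3b to Hist1h3f, 11 of 46 were.

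Low counts spread ratios, so the members were also set against genes of like read number. Among genes with 20 to 49 reads in the IPs together, 7 of 15 histone genes were higher, or 46.7% against 14.3% of 3242 genes. With 50 to 99 reads, 3 of 6 were, against 6.55%, and with 100 to 299 reads 1 of 9, against 2.01%. With 10 to 19 reads 5 of 11 were, against 30.8%, with 1 to 9 reads 0 of 8, against 6.88%, and with 300 or more 0 of 2, against 0.387%. The 7 include Hist1h3b, Hist1h3c, Hist1h3d and Hist1h3e, with 37, 38, 37 and 37 mutant IP reads. The 3 include Hist1h2be and Hist1h2bg, with 47 each. Such copies may share reads, so these shares do not count separate observations. By counting intervals the family was closer to the background: the 95% interval of the ratio lay above 1 for 25 of 58 histone genes with IP reads, or 43.1% against 38.6% of all genes, and below 1 for 8, or 13.8% against 15.0%. The interval lay wholly above 4-fold for 6 genes, or 10.3% against 2.81% of all genes, namely Hist1h3b, Hist1h3c, Hist1h3e, Hist1h3f, Hist1h4h and Hist3h2a.

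**Figure D2:**
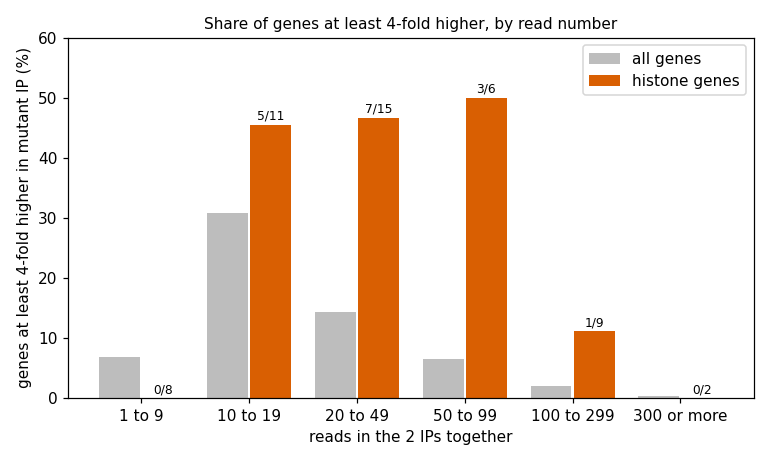
Share of genes at least 4-fold higher in the mutant IP than in the mock IP (y axis, percent) by reads in the 2 IPs together (x axis), for all genes of the table (grey) and for histone genes (orange, with counts above the bars). The histone share is 46.7% against 14.3% at 20 to 49 reads, and 0 histone genes are higher below 10 reads.

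Summed over all 60 genes, histone reads were 1.53 times the mock IP level (95% interval 1.42 to 1.64), which became 1.35 with equal totals and 1.17 after centring. H1 stayed near the mock level at 1.07 (0.952 to 1.20; 633 against 548 reads), and so did H2A at 1.08 (0.908 to 1.29; 285 against 244). H2B reached 2.35 (1.87 to 2.98; 264 against 104), H3 2.63 (2.19 to 3.17; 457 against 161) and H4 2.19 (1.80 to 2.67; 350 against 148). With equal totals H1 and H2A turned to 0.944 and 0.955, and after centring to 0.820 and 0.829, while after centring H2B, H3 and H4 stayed above 1 at 1.80, 2.01 and 1.68. Without the H1 genes the sum for the core histones was 1.91 (1.74 to 2.10). Between the inputs the H3 and H4 sums differed more, with mutant over mock ratios of 4.05 and 2.61. Divided by the ratio of the inputs, the IP ratio was 0.964 for the family (approximate 95% interval 0.810 to 1.15). It was 6.98 for H2B (3.12 to 15.6), 0.649 for H3 (0.329 to 1.28) and 0.839 for H4 (0.566 to 1.24).

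**Figure D3:**
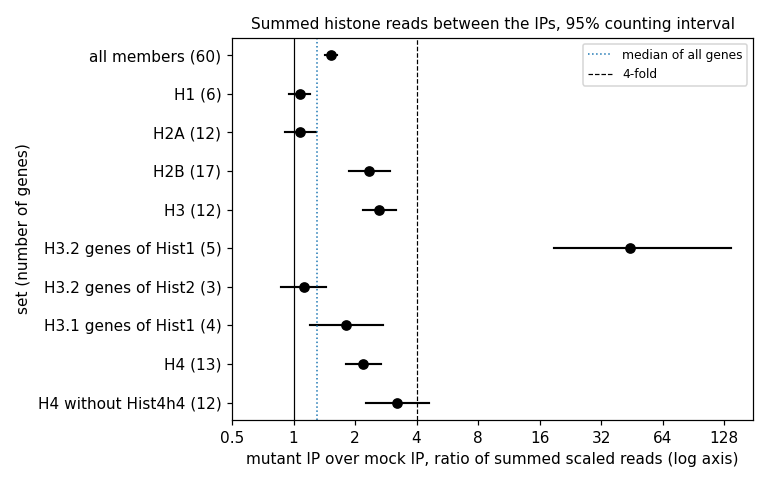
Ratio of summed scaled reads, mutant IP over mock IP (x axis, log scale), for all histone genes, each class and subsets of H3 and H4 (number of genes in brackets); points are ratios, lines 95% counting intervals, the dotted line the median of all genes. H1 and H2A lie near 1 (below 1 with equal totals or centring), H2B, H3 and H4 between 2 and 3, and the H3.2 genes of Hist1 at 44.4.

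Among H3 genes the difference sat in the Hist1 genes that encode H3.2, one of the replication-coupled H3 proteins. RefSeq cross-lists these 5 genes with the 3 Hist2 genes, and the 4 other Hist1 genes with each other, though it also keeps H3.1 as an older name of Hist1h3e. The grouping was made after the values were seen. Hist1h3f had 4 and 0 reads in the inputs and 91 and 0 in the IPs, which is at least 28.1-fold higher between the IPs. Hist1h3c had 4, 0, 38 and 0 reads, at least 11.7-fold higher. Hist1h3b and Hist1h3e, with 37 against 0 IP reads, were at least 11.4-fold higher, and Hist1h3d had 37 against 5, a ratio of 6.85 (2.69 to 22.3). The mutant IP was thus high in all 5 and the mock IP at or near 0, and 3 of the 5 gave 37 reads. Together they had 240 IP reads against 5, a ratio of 44.4 (18.8 to 138). These copies may share reads, so the sum may count some reads more than once and its interval may be too narrow. Their input reads also differed, with 11 against 0 and an interval from 3.49 upward. The mutant IP stood at 14.5 times its own input (7.98 to 29.5). With 0 mock input reads no specific enrichment could be given for them. The part of the input difference in the ratio of 44.4 was not tested.

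The other H3 genes gave smaller ratios. The 3 H3.2 genes of the Hist2 cluster had 141 against 117 reads, a ratio of 1.12 (0.867 to 1.44), with 61 and 43 for Hist2h3c2, 61 and 39 for Hist2h3c1 and 19 and 35 for Hist2h3b. The 4 Hist1 genes that encode H3.1 had 76 against 39, a ratio of 1.80 (1.21 to 2.73). Of these Hist1h3h had 29 and 8 and Hist1h3i 18 and 23 reads. Without the 5 Hist1 genes of H3.2 the H3 sum was 1.29 (1.04 to 1.59) and the sum of the whole family 1.35 (1.25 to 1.45).

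Among the 12 measured H2B genes 5 were higher, or 41.7% against 10.1% of all genes. Both of the 2 lower genes of the family were found here, or 16.7% against 5.74%. Hist2h2bb had 3 and 16 reads in the inputs, low in the mutant, and 86 and 15 in the IPs, low in the mock, where the ratio was 5.31 (3.05 to 9.89). Hist1h2bg had 47 against 7 IP reads (6.22; 2.79 to 16.3), Hist1h2be 47 against 9 (4.84; 2.34 to 11.2) and Hist1h2bb 25 against 3 (7.72; 2.35 to 39.9). Hist1h2bm had 11 against 0 and a bound of 3.40, under 4-fold. Hist3h2ba and Hist3h2bb-ps, the latter named as a pseudogene, with the same reads, went the other way with 2 against 17 (0.109; 0.0122 to 0.459). Hist1h2bh and Hist1h2bn each had 0 against 7 reads, at least 2.52-fold lower. A second, Ensembl transcript of Hist2h2bb in the noncoding table had 49 against 19 IP reads, a ratio of 2.39 (1.38 to 4.30), and 14 against 1 in the inputs, where the mRNA table has 3 against 16.

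Of 12 measured H4 genes 4 were higher (33.3% against 10.1% of all genes) and 0 lower (5.74% of all genes). The most abundant was not among the 4. All H4 genes encode the same protein or nearly so. Hist4h4 had 205 against 106 IP reads (1.79; 1.41 to 2.29). Hist1h4h had 30 against 0, at least 9.26-fold higher. Hist1h4a and Hist1h4f had 11 against 0, and Hist1h4j 10 against 0, with bounds of 3.40, 3.40 and 3.09. Among genes with 10 to 19 reads in the IPs, as in these, 30.8% of all genes were higher. Hist2h4 had 16 reads in each IP. Without Hist4h4 the class had 145 against 42 reads, a ratio of 3.2 (2.25 to 4.62).

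For H2A 1 of 9 measured genes was higher (11.1%) and for H1 1 of 6 (16.7%), near the 10.1% of all genes. Hist3h2a had 35 against 2 IP reads (16.2; 4.16 to 139) and 0 in both inputs. The abundant H2A genes Hist2h2aa1 and Hist2h2aa2 gave 1.30 each (0.933 to 1.81). Hist2h2ac had 30 against 51 reads (0.545; 0.335 to 0.872), Hist2h2ab 17 against 39 (0.404; 0.214 to 0.730) and Hist1h2ac 4 against 13 (0.285; 0.0677 to 0.922). The H1 gene past 4-fold was Hist1h1t, which encodes the testis-linked H1t, with 15 against 0 reads, at least 4.63-fold higher. The somatic H1 genes Hist1h1a (202 against 177), Hist1h1c (115 against 122), Hist1h1e (95 against 108) and Hist1h1b (68 against 63) gave 1.06, 0.873, 0.814 and 0.999, each with an interval that includes 1, and Hist1h1d (138 against 78) gave 1.64 (1.23 to 2.19). The testis-linked H2A and H2B genes Hist1h2aa and Hist1h2ba had 2 and 1 reads over all libraries.

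**Figure D4:**
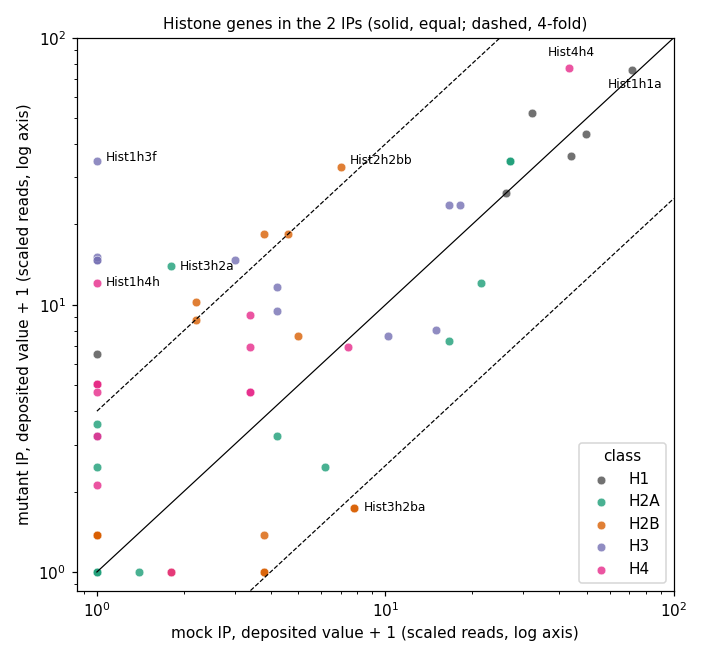
Deposited value plus 1 of each histone gene in the mock IP (x axis, log scale) and in the mutant IP (y axis, log scale), coloured by class; the solid line marks equal values and the dashed lines 4-fold. Hist1h3f stands at the left edge with 0 mock reads. Hist4h4 and the H1 genes other than Hist1h1t lie near the solid line at the upper right.

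Between the inputs, which compare RNA before the IP, reads of the Hist1 genes of H3 and of the H4 gene Hist4h4 were higher with mutant Dis3l2. Summed H2B reads were lower. Past 2-fold 12 of 33 measured genes were higher, or 36.4% against 37.0% of all genes, and 9 were lower, or 27.3% against 21.8%. The counts over the family were thus near the background, and the median log2 ratio was 0.38 against 0.51. With equal totals 13 were higher and 15 lower, and after centring 9 and 12, so the balance turned with the scaling. H3 had 35 against 12 reads (4.05; 2.05 to 8.57), and this sum was split by cluster. The Hist1 genes had 11 against 0 reads for H3.2 and 21 against 0 for H3.1. In the mutant input Hist1h3c, Hist1h3d and Hist1h3f had 4, 3 and 4 reads, and Hist1h3a, Hist1h3g, Hist1h3h and Hist1h3i 6, 3, 6 and 6. Such copies may share reads, so these sums may count some reads more than once and the H3 interval may be too narrow. The Hist2 genes of H3.2 had 3 against 12, on the other side of 1, with an interval that included 1 (0.347; 0.0629 to 1.29). H4 had 94 against 50 (2.61; 1.83 to 3.76), of which Hist4h4 had 80 against 25 (4.44; 2.81 to 7.27), and the other H4 genes 14 against 25 (0.778; 0.374 to 1.55). H2B had 8 against 33 (0.337; 0.134 to 0.743), of which Hist2h2bb had 3 against 16. Without that gene H2B had 5 against 17, and the interval included 1 (0.408; 0.118 to 1.15). The Ensembl transcript of Hist2h2bb went the other way, with 14 against 1 (19.4; 2.96 to 822). With equal totals H3, H4 and H2B were at 2.76, 1.78 and 0.230. Only 9 members had at least 10 reads in the inputs together, and of these Hist4h4 and Hist2h2bb, at 0.260 (0.0486 to 0.910), were past 2-fold.

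IP over input was taken within each condition, and in the mock a smaller share of histone genes than of all genes was past 4-fold at the main setting. In the mutant, 27 of 48 measured genes were at least 4-fold above input, or 56.2% against 61.1% of all genes, and in the mock 15 of 37, or 40.5% against 60.6%. With a pseudocount of 0.5 the mock count was 23 of 37, and the share of all genes at that setting is not given here. These shares were not set against genes of like read number. Lower than input were 1 of 48 in the mutant (2.08% against 2.32%) and 0 of 37 in the mock (1.92% of all genes). Summed histone reads were 4.02 times input in the mutant (3.57 to 4.53) and 4.17 times in the mock (3.66 to 4.76), and with equal totals 0.814 and 0.653 times. With equal totals outside Lars2 they were 1.13 times (1.01 to 1.27) in the mutant and 1.03 times (0.903 to 1.17) in the mock. For H2B the mutant IP stood at 22.0 times input (11.0 to 51.5) and the mock IP at 3.15 times (2.11 to 4.81). H1 was at 2.50 and 3.24 times, H2A at 7.92 and 9.76, H3 at 8.70 and 13.4 and H4 at 2.48 and 2.96. With equal totals H1 turned to 0.506 and 0.508, H4 to 0.503 and 0.463 and the mock value of H2B to 0.493. H2A (1.60 and 1.53), H3 (1.76 and 2.10) and H2B in the mutant (4.46) stayed above 1. The single gene below input by 4-fold was Hist1h4i, with 6 input and 0 IP reads in the mutant, at an interval up to 0.566.

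The specific IP enrichment divides IP over input in the mutant by the same ratio in the mock, and it shares the IP libraries with the comparison of the IPs. Of 53 measured genes 17 were at least 4-fold higher, or 32.1% against 13.8% of all genes, and 3 were lower, or 5.66% against 10.6%, with a median log2 of 0.88 against 0.13. Of the 17, 14 were also past 4-fold between the IPs, and 7 had 0 reads in both inputs, so that their value is that of the IPs alone. For the sum of the family the enrichment was 0.964 (approximate 95% interval 0.810 to 1.15). By class it was 6.98 for H2B (3.12 to 15.6), 0.770 for H1 (0.605 to 0.981), 0.811 for H2A, 0.649 for H3 and 0.839 for H4, the last 3 with intervals that include 1. With equal totals H1 was at 0.997 (0.782 to 1.27), H2A at 1.05 and H4 at 1.09, while H2B was at 9.03 (4.04 to 20.2). H4 without Hist4h4 was at 4.11 (1.96 to 8.60). The H2B value rests on 8 reads in the mutant input, and without Hist2h2bb it was 4.53 (1.62 to 12.7). The Ensembl transcript of Hist2h2bb is not part of this sum. Its ratio was larger between the inputs (19.4) than between the IPs (2.39), so its enrichment points the other way. With equal totals the sum of the family was 1.25 (1.05 to 1.48), so its side of 1 depended on the scaling. Hist4h4 with the H1 genes held most of the input reads in the sum.

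Genes for histones made outside S phase, and for proteins that make, bind or degrade histone mRNA, were set beside the family, and between the IPs their counts are to be read against 10.1% higher and 5.74% lower over all genes. Of the replication-independent histones 0 of 12 measured were past 4-fold between the IPs in either direction, with a median log2 of 0.30, and their summed reads gave 1.32 (1.18 to 1.47). The most read were H2afx, the H2A that is phosphorylated at DNA breaks, with 190 against 129 reads (1.36; 1.08 to 1.72), and the H3.3 gene H3f3b with 157 against 116 (1.25; 0.980 to 1.61). Of 19 genes for transcription and 3′ end processing of histone mRNA 1 was higher and 0 lower (median 0.13). That gene was Lsm10, a U7 snRNP protein, with 11 against 0 reads and a bound of 3.40. Srrt and Sympk, both needed for 3′ end formation, had the most reads, with ratios of 1.10 (0.900 to 1.34) and 0.973 (0.796 to 1.19), and Slbp had 40 against 37 (1.0; 0.624 to 1.61).

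Of 17 measured genes for histone mRNA decay 2 were higher and 0 lower (median 0.03), and these were Dis3l2 itself with 127 against 21 reads (5.60; 3.51 to 9.36) and the terminal uridylyltransferase gene Zcchc11 with 146 against 16 (8.45; 5.03 to 15.2). Reads of Dis3l2 from the cells and from the construct cannot be told apart here. Smg1 and Upf1, a kinase and the helicase it acts on, had the most reads, at 0.963 (0.847 to 1.09) and 1.02 (0.861 to 1.21). Of 18 histone chaperone genes 0 were higher and 0 lower (median 0.20), with Hjurp at 1.63 (1.48 to 1.79) and Npm1 at 0.797 (0.712 to 0.890). Of 18 S phase genes 1 was higher and 1 lower (median 0.04). These were Ccne2 with 9 against 0 reads and a bound of 2.78, under 4-fold, and Ccna2 with 12 against 57. Tyms and Mcm5 had the most reads, at 1.68 (1.42 to 1.99) and 1.22 (1.02 to 1.47). Between the inputs the S phase genes summed to 625 against 623 reads, a ratio of 1.39 (1.25 to 1.56), beside 1.59 (1.35 to 1.86) for the histone genes. Tyms alone held 529 and 495 of these S phase reads, so that ratio is mostly the ratio of Tyms. Of 15 S phase genes measured between the inputs 4 were past 2-fold higher and 5 lower, against 37.0% and 21.8% of all genes. Their median log2 ratio was 0.20, against 0.51 over all genes.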

How the data were processed

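The series holds 4 libraries, 1 per group, so nothing was averaged. Alignment used Bowtie and build mm9, per the submitters' processing notes; no source used here gives versions, the counting tool, strand or the treatment of multi-mapping reads. The values the authors deposited are a signal per transcript: 100% of values in each library were whole reads (within 0.02 reads) divided by 1.8 (mutant input), 2.5 (mock input), 2.7 (mutant IP) or 2.5 (mock IP), and what these factors stand for is not stated. Each gene of the mRNA table had 1 row, after 26 names turned into dates were restored through RefSeq accessions (GRCm38).

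Members were found by symbol. Reads were recovered by multiplication, and ratios used the deposited scale. Intervals of ratios of 2 libraries are exact conditional binomial 95% intervals, and that of the specific enrichment is a normal approximation on the log scale (scipy 1.17.1, pandas 2.3.3). The count test that recovered reads would allow needs replicates and was not run. The calculation was tested on simulated data with independent reads, for genes with at least 20 mock IP reads. It was not tested at the lower counts of most histone genes called higher, nor with reads shared between copies. Read number bins are 1 to 9, 10 to 19, 20 to 49, 50 to 99, 100 to 299 and 300 or more.

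Named members are the 10 highest and 5 lowest between the IPs with at least 10 IP reads, the 2 most read of each class, and those past 2-fold between the inputs with at least 10 input reads. All other members named were chosen after their values were seen. Of the lists of other histone-related and S phase genes the 2 most read and those past 4-fold between the IPs are named, of the cell type markers those past 4-fold, and Slbp was chosen after its values were seen. Members and lists were chosen with earlier results of these data known.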

Additional observations from a re-analysis of the deposited data

Results flagged for a closer look

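Hist1h4a and Hist2h2bb had log2 IP over input of opposite sign in the 2 conditions, and with 1 library per group the difference was not tested. For each gene the ratio of 1 condition has a counting interval that includes 1, so that condition shows no change beyond counting error. Hist1h4a had log2 IP over input of 0.65 in the mutant (4 input and 11 IP reads) and -1.93 in the mock (7 and 0 reads), a specific enrichment of 2.58, and the mutant ratio was 1.83 (0.543 to 7.89). For Hist2h2bb the mutant value was 3.62 (3 and 86 reads) and the mock value -0.08 (16 and 15 reads). Its specific enrichment was 3.70, and the mock ratio was 0.938 (0.432 to 2.02). The Ensembl transcript of Hist2h2bb had a ratio of 2.39 (1.38 to 4.30) between the IPs and 19.4 (2.96 to 822) between the inputs. The input ratio is the larger, so the enrichment of that transcript points the other way, though it rests on 1 mock input read. The direction for this gene thus depends on the transcript.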

How the results depend on the processing

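Between the IPs, 16 histone genes were past 4-fold, and this count was 7 with equal totals, 7 after centring and 1 with a pseudocount of 5. For the specific enrichment 17 became 2 with a pseudocount of 5. For IP over input in the mutant 27 became 10 with a pseudocount of 5, 15 with equal totals and 1 after centring. In the mock 15 became 23 with a pseudocount of 0.5, 2 with a pseudocount of 5, 3 with equal totals and 0 after centring. Between the inputs 12 became 1 with a pseudocount of 5 and 1 with a minimum value of 5. The other counts of higher genes stayed within 1.5 times. Counts of lower genes went from 2 between the IPs to 0 with equal totals or a pseudocount of 5 and to 4 after centring or with a pseudocount of 0.5, and from 9 between the inputs to 15 with equal totals, 12 after centring, 0 with a pseudocount of 5 and 1 with a minimum value of 5. For IP over input they went from 1 in the mutant and 0 in the mock to 4 in each with equal totals or centring, and for the specific enrichment from 3 to 6 and 5. Shares of all genes under these settings are not given here, so these changes are not set against the background.

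Summed reads between the IPs gave 1.35 with equal totals, 1.17 after centring, 1.16 with equal totals outside Lars2, and, as alternatives chosen after seeing the data, 1.35 without the 5 Hist1 genes of H3.2 and 1.91 without H1. IP over input in the mutant gave 0.814, 0.739 and 1.13 under the same 3 scalings and 4.76 without Hist4h4, and in the mock 0.653, 0.834 and 1.03. Between the inputs the sum gave 1.08, 1.12 and 1.06, and 1.32 without Hist4h4. The specific enrichment gave 1.25 with equal totals.

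Class sums whose direction turned although the interval had left out 1, each with equal totals and then after centring, were IP over input in the mutant for H1 (0.506, 0.459) and H4 (0.503, 0.456), IP over input in the mock for H1 (0.508, 0.649), H2B (0.493, 0.630), H4 (0.463, 0.592) and H4 without Hist4h4 (0.263, 0.336), and the inputs for H1 (0.947, 0.978). Sums whose interval included 1 also crossed 1: H1 (0.944, 0.820) and H2A (0.955, 0.829) between the IPs, H2A between the inputs (0.910, 0.939), and with equal totals the specific enrichment of the family (1.25), H2A (1.05) and H4 (1.09). The family's median log2 turned to -0.21 in the mutant and -0.40 in the mock for IP over input after centring, and between the inputs to -0.41 with equal totals and -0.12 after centring. Centring takes away a median of all genes of 0.38 between the IPs, 2.44 and 2.32 for IP over input, 0.51 between the inputs and 0.13 for the specific enrichment. Among 25 named members, 215 values of the log2 IP ratio under alternatives kept their sign except 5 values of 4 members, and 25 of the 215 were no longer past 4-fold. These 4 lie near 0: Hist1h1a went from 0.08 to -0.10 with equal totals and -0.31 after centring, Hist2h2aa1 and Hist2h2aa2 from 0.36 to -0.02 and Hist2h3c2 from 0.37 to -0.01 after centring. Few input reads limit every ratio that uses an input. No paired analysis was possible because each group has 1 library.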
